A study of Harpegnathos saltator with 32 samples.

Results

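The genes described here are 100 genes that had more RNA in worker than in gamergate central brains of the ant Harpegnathos saltator in one experiment of the series, both when Kr-h1 was targeted by siRNA and when a GFP control siRNA was given. They were taken from 9430 genes, the 9433 tested less 3 that the rule leaves out by name, in a deposited table of 14001 genes. The genes were chosen by the FPKM values of only the libraries labelled exp3 (experiment 3). For each gene, the worker minus gamergate difference of mean log2(FPKM + 0.5) was taken with GFP siRNA and again with Kr-h1 siRNA, and the 100 genes whose smaller difference was highest were kept. FPKM is fragments per kilobase of gene length, scaled for depth. The 17 libraries labelled exp2 (experiment 2) had no part in the choice, and every test below comes from them.

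Each of the 32 libraries held polyadenylated RNA of 1 central brain from a day 10 ant. Every ant, controls included, had received dicer-substrate siRNA in glucose with a transfection reagent by injection into the head, and the brain was taken 10 hours later. The groups were workers with Kr-h1 siRNA (7 libraries, 3 of them in experiment 3 and 4 in experiment 2), workers with GFP siRNA (8, 3 and 5), gamergates with Kr-h1 siRNA (8, 4 and 4) and gamergates with GFP siRNA (9, 5 and 4). All experiment 2 gamergates carried the run label 200508 and all other libraries the label 200626, so caste and run cannot be told apart in experiment 2, whereas both castes of experiment 3 shared a run. In bulk tissue, fewer cells of a type and less RNA per cell cannot be told apart.

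Gamergates are Harpegnathos workers that have become mated egg layers, with a changed brain and behaviour, while ordinary workers forage, hunt and tend brood. Kr-h1 (Krüppel homolog 1) is a zinc finger transcription factor that is induced by juvenile hormone in insects, and GFP is a jellyfish protein that ants lack.

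Kr-h1 itself (LOC112589664) checked the labels. In experiment 3 it averaged 0.385 ± 0.0769 FPKM in workers with Kr-h1 siRNA and 0.592 ± 0.151 FPKM in workers with GFP siRNA (SD, n = 3 each). In gamergates of experiment 3 it averaged 0.419 ± 0.148 FPKM with Kr-h1 siRNA (SD, n = 4) and 0.644 ± 0.125 FPKM with GFP siRNA (SD, n = 5). In experiment 2 the means were 0.478 FPKM in workers with Kr-h1 siRNA and 1.10 FPKM in workers with GFP siRNA, and 0.466 FPKM in gamergates with Kr-h1 siRNA and 3.31 FPKM in gamergates with GFP siRNA, where 1 brain reached 7.57 FPKM. The group mean was lower with Kr-h1 siRNA in all 4 settings, but Kr-h1 lay below the filter on low values, and without that filter limma gave an adjusted p of 0.539 in workers and 0.374 in gamergates of experiment 2.

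The depth, as reads recovered from the FPKM values, was 4.80 to 15.17 M in single libraries (median 8.49 M). The 14 neuron markers matched summed to between 761 and 1305 FPKM in every library, so the labelled tissue was present throughout. A pair of libraries stood apart at low levels. In worker GFP replicates 4 and 5 of experiment 2, zeros made up 25.5% and 14.5% of the values of 275 genes whose median was 5 to 20 reads, against at most 7.27% in any other library.

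The 100 genes were mostly short, weakly expressed and without a gene symbol. Their biotypes were 81 protein-coding genes, 17 long non-coding RNAs (lncRNAs), 1 pseudogene and 1 gene listed as misc_RNA, where lncRNAs were 4.59% of all genes tested. A symbol other than a number was held by 13 of the 100, where 41.04% of genes tested had one. The median annotated span was 2.41 kb, against 4.33 kb over all genes tested. The median of the mean level was 2.88 FPKM against 6.26 FPKM, and 69 of the 100 averaged below 5 FPKM, against 42.5% of genes tested. The median gene of the 97 with recovered reads had 70.0 reads per library, against 331.5 over all genes. For 27 of the 100, 6 lncRNAs among them, the annotated span overlaps another gene, and their values are uncertain to that extent because whether the counting used strand is not given in the sources used here. Within a group of replicates the median SD of log2(FPKM + 0.5) was 0.61 for the 100 genes and 0.24 for all genes, so the 100 varied more between brains of the same group than the typical gene did.

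In experiment 3, which chose them, the worker minus gamergate difference ran from 0.47 to 4.5 with GFP siRNA (median 0.79) and from 0.47 to 2.59 with Kr-h1 siRNA (median 0.72), all as log2(FPKM + 0.5), on which low genes change less than their true ratio. The 3 genes just inside the threshold were LOC112588930, NPF and LOC105187214, whose smaller differences were 0.468, 0.467 and 0.466. The 3 just outside were LOC105190866, LOC105187057 and LOC105188939, at 0.463, 0.462 and 0.460. All worker values exceeded all gamergate values for 45 of the 100 with GFP siRNA (7.0% of all genes), for 32 with Kr-h1 siRNA (6.73% of all genes) and for 16 in both treatments (0.837% of all genes). These values follow from the rule and are a description.

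**Figure D1:**
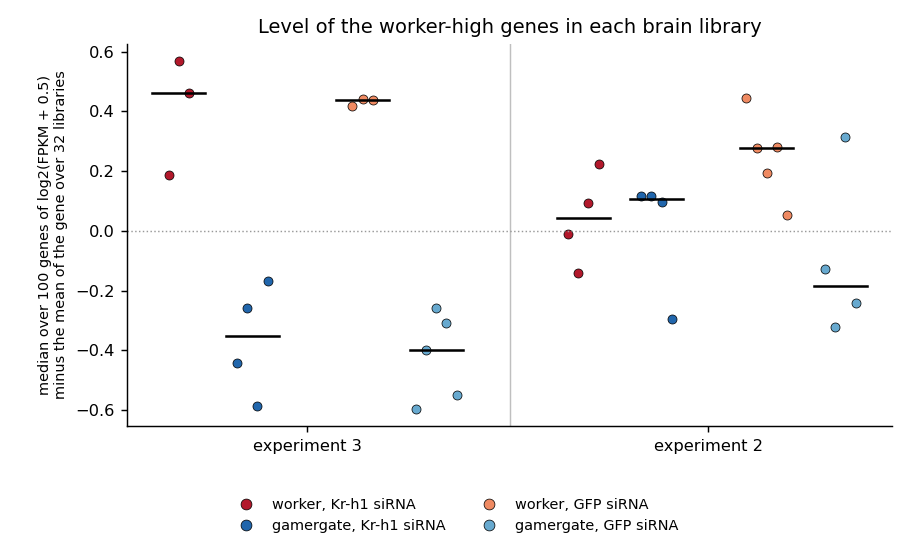
Each point is 1 brain library, placed by the median over the 100 genes of log2(FPKM + 0.5) minus that gene's mean over 32 libraries (y axis), with bars at group medians. In experiment 3, which chose the genes, workers lie between 0.19 and 0.57 and gamergates between -0.60 and -0.17, whereas in experiment 2 the castes overlap with both siRNAs.

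Library by library, the median of the 100 genes lay between 0.19 and 0.57 above the genes' own means in the 6 workers of experiment 3, and between 0.17 and 0.60 below them in its 9 gamergates, as the rule demands. In experiment 2 the same median ran from -0.14 to 0.22 in workers with Kr-h1 siRNA and from -0.29 to 0.12 in gamergates with Kr-h1 siRNA. It ran from 0.05 to 0.45 in workers with GFP siRNA and from -0.32 to 0.31 in gamergates with GFP siRNA. Gamergate GFP replicate 3 was at 0.31, while the other 3 gamergates with GFP siRNA were all below 0.

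In experiment 2, with GFP siRNA, 19 of the 100 genes rose and 4 fell in workers relative to gamergates (limma, Benjamini-Hochberg adjusted p under 0.05). Over all genes 54.3% were called, 26.4% higher and 27.9% lower, so the share of the 100 called higher was below the background and the share called lower was further below it. For the higher calls that order turned in 3 of 29 alternatives: 26 of the 100 without worker GFP replicate 5 (25.9% of all genes), 27 without worker GFP replicates 4 and 5 (24.7%) and 37 with variable libraries down-weighted (32% of all genes). Split by mean level, the order for higher calls was not the same. The 31 of the 100 at 5 FPKM or more held 9 called higher and 0 lower, where 24.5% and 29.6% of all such genes were. The 69 below 5 FPKM held 10 higher and 4 lower, where 29% and 25.5% of all such genes were. The difference was above 0 for 58 of the 100, with a median of 0.31 against -0.05 over all genes tested. That median was 0.16 without gamergate GFP replicate 2 and 0.034 with a trend of the difference on gene span removed. With Kr-h1 siRNA, 9 rose and 5 fell, where 22.8% of all genes were called, 14.2% higher and 8.59% lower. The 31 at 5 FPKM or more held 4 called higher and 1 lower with Kr-h1 siRNA, against 9.9% and 11.2% of all such genes. The 69 below 5 FPKM held 5 higher and 4 lower, against 20% and 5.11%. The difference was above 0 for 52 of the 100, with a median of 0.06 against -0.04 over all genes. The median of the 100 was -0.0056 without gamergate Kr-h1 replicate 2, -0.0056 with variable libraries down-weighted and -0.11 with quantile normalisation. The share called lower was above that of all genes in 4 of 29 alternatives with Kr-h1 siRNA.

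Counted by overlap, all workers were above all gamergates of experiment 2 for 12 of the 100 genes with GFP siRNA (20.7% of all genes) and for 11 with Kr-h1 siRNA (15%). All workers were below all gamergates for 1 with GFP siRNA (19.0%) and for 8 with Kr-h1 siRNA (11.7%). Most of these 8 belong to a block of co-varying genes, described below, that may not be separate measurements. In both treatments, 5 of the 100 were higher without overlap (10.7%) and 0 were lower (3.74%).

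The count with GFP siRNA was 33 without worker GFP replicate 5 (52.9% of all genes) and 18 without gamergate GFP replicate 4 (50.4%). With Kr-h1 siRNA, leaving out worker Kr-h1 replicate 1 gave a count of 8 (16.3%), and so did leaving out replicate 4 of the gamergates with Kr-h1 siRNA (18.6%). The genes called lower numbered 2 to 10 with GFP siRNA when 1 library was left out, with the highest count without gamergate GFP replicate 1, and 1 to 9 with Kr-h1 siRNA, with the lowest without worker Kr-h1 replicate 2 and the highest without worker GFP replicate 5. With the span trend removed, 18 genes were higher and 19 lower with GFP siRNA, where 25.1% and 28.4% of all genes were. With Kr-h1 siRNA the same setting gave 8 higher and 10 lower, where 15.2% and 12.3% of all genes were. Quantile normalisation gave 7 higher and 12 lower with Kr-h1 siRNA, against 13.2% and 10.7% of all genes.

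Both treatments together left 8 genes that rose in workers of experiment 2 with GFP siRNA and with Kr-h1 siRNA (12.8% of all genes did), and 1 that fell with both (4.71% of all genes). The 8 were LOC109504416, LOC105187718, LOC112589549, LOC105188517, LOC112588930, LOC112589505, LOC105191250 and LOC112589101. Of the others, 72 were called in neither direction in either treatment, against 40.7% of all genes. The 17 lncRNAs held 3 genes called higher and 0 called lower with each siRNA (limma), where all lncRNAs tested were 30.5% higher and 14.3% lower with GFP siRNA and 17.6% higher and 8.55% lower with Kr-h1 siRNA. The 13 genes with a symbol held 2 called higher and 0 called lower with GFP siRNA, where 24.2% and 32% of all genes with a symbol were called. With Kr-h1 siRNA they held 0 in either direction, against 11.5% higher and 9.02% lower.

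**Figure D2:**
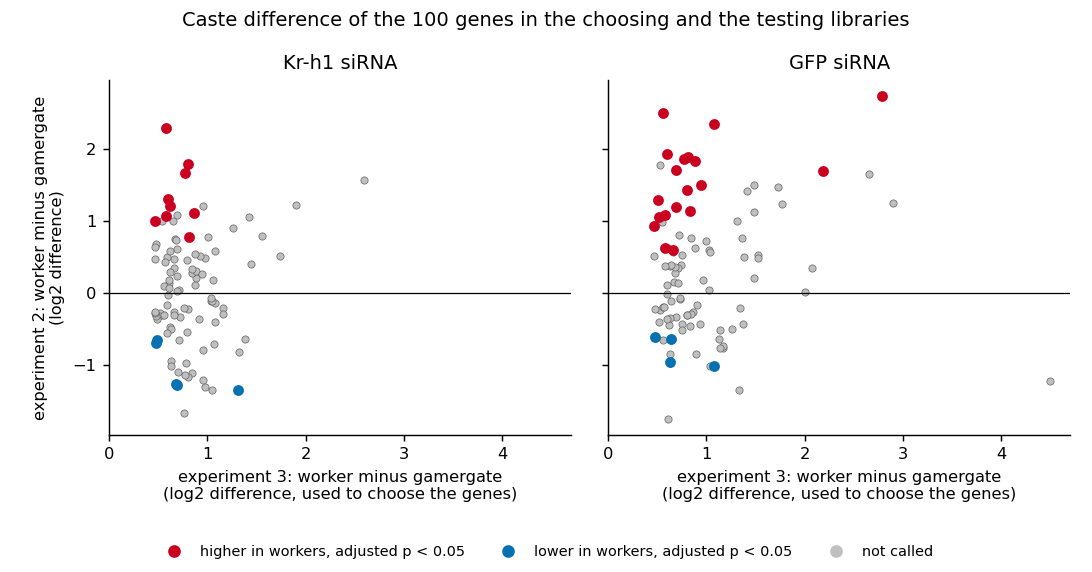
Each point is 1 of the 100 genes, placed by its worker minus gamergate log2 difference in experiment 3, which chose it (x axis), and in experiment 2 (y axis), with Kr-h1 siRNA on the left and GFP siRNA on the right. In experiment 2 the genes spread from -1.67 to 2.29 with Kr-h1 siRNA and from -1.75 to 2.73 with GFP siRNA, on both sides of 0.

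The largest difference of these 8 with either siRNA was that of LOC109504416, a protein-coding gene without a symbol. Its levels with GFP siRNA were 7.11, 7.97, 5.66, 2.61 and 13.1 FPKM in workers, against 0.499, 0.807, 0.803 and 0.910 FPKM in gamergates. With Kr-h1 siRNA it had 6.81, 3.87, 8.44 and 8.10 FPKM in workers, against 1.64, 0.645, 0.886 and 0.778 FPKM in gamergates. Every worker was above every gamergate in both treatments. The difference was 2.49 ± 0.33 with GFP siRNA (log2 ± SE, limma adjusted p = 9.78e-06) and 2.29 ± 0.34 with Kr-h1 siRNA (limma adjusted p = 0.000103), and both calls held in all 17 fits that each left out 1 library. In experiment 3 its groups were also apart, but closer together: 9.22, 7.95 and 10.4 FPKM in workers and 4.92, 5.78, 6.08 and 7.14 FPKM in gamergates with Kr-h1 siRNA, and 6.10, 7.17 and 6.16 FPKM in workers and 4.98, 3.47, 4.69, 3.85 and 4.27 FPKM in gamergates with GFP siRNA. The gamergates of experiment 2 were thus well below those of experiment 3, while the workers of the experiments overlapped. Its annotated span overlaps 2 other genes, which averaged 3.92 and 1.19 FPKM.

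The protein-coding gene LOC105187718 was low throughout, with a mean of 1.32 FPKM. In experiment 2 with GFP siRNA its levels were 2.25, 2.68, 1.30, 3.08 and 1.85 FPKM in workers, against 0.168, 0.205, 0.255 and 0.159 FPKM in gamergates. With Kr-h1 siRNA it had 2.74, 1.07, 1.06 and 2.11 FPKM in workers, against 0.609, 0.588, 0.310 and 0.261 FPKM in gamergates. The castes did not overlap in either treatment. It rose by 1.93 ± 0.24 with GFP siRNA (limma adjusted p = 6.36e-06) and by 1.20 ± 0.26 with Kr-h1 siRNA (limma adjusted p = 0.00266). In experiment 3 its castes overlapped in both treatments, with differences of 0.60 with GFP siRNA and 0.61 with Kr-h1 siRNA. LOC112588930, also protein-coding and also low, rose by 1.5 ± 0.25 (adjusted p = 9.11e-05, limma) and 0.99 ± 0.26 (adjusted p = 0.0108, limma), with workers above all gamergates in both treatments of experiment 2. Its call with Kr-h1 siRNA was lost with quantile normalisation (limma adjusted p = 0.061).

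The most abundant of the 100 were the lncRNAs LOC112589549 and LOC105188517, with means of 2022 and 1850 FPKM over the 32 libraries. LOC112589549 had 2668, 2576, 2885 and 2309 FPKM in workers with Kr-h1 siRNA of experiment 2, against 1210, 1606, 1704 and 650 FPKM in gamergates with Kr-h1 siRNA. The levels with GFP siRNA were 2071, 2461, 3328, 2590 and 2755 FPKM in workers, against 856, 806, 723 and 827 FPKM in gamergates. Workers were above all gamergates in each treatment of each experiment, and the difference in experiment 2 was 1.10 ± 0.25 with Kr-h1 siRNA (limma adjusted p = 0.00414) and 1.70 ± 0.24 with GFP siRNA (limma adjusted p = 1.83e-05). The call with Kr-h1 siRNA was lost with quantile normalisation (limma adjusted p = 0.0799).

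LOC105188517 had 2375, 2185, 2465 and 2132 FPKM in workers with Kr-h1 siRNA, against 1624, 1589, 1703 and 732 FPKM in gamergates with Kr-h1 siRNA. Its GFP siRNA libraries had 1934, 2956, 3272, 4041 and 3425 FPKM in workers, against 893, 705, 984 and 795 FPKM in gamergates. It too had no overlap between castes in either treatment of either experiment. It rose by 1.86 ± 0.25 with GFP siRNA (limma adjusted p = 1.40e-05). The call with Kr-h1 siRNA, 0.77 ± 0.26 (limma adjusted p = 0.0451), held in 5 of 17 fits with 1 library left out and gave an adjusted p of 0.147 without gamergate Kr-h1 replicate 4.

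Each of these lncRNAs overlaps the annotated span of the same protein-coding gene, LOC105188516. That gene averaged 0.727 FPKM and was called in neither treatment, with an adjusted p in limma of 0.674 with GFP siRNA and 0.233 with Kr-h1 siRNA. Whole reads could not be recovered for either lncRNA at this level. Together with LOC109504416 they were the 3 of the 100 in which every worker exceeded every gamergate in all 4 comparisons, which 10 of all genes tested did (0.106%). That count includes the experiment 3 comparisons that chose the genes.

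LOC105182527, a protein-coding gene, varied with the lncRNAs across the 32 libraries (a correlation of log2 values of at least 0.85 with one of them, a grouping made after the values were seen). With GFP siRNA it had 3.70, 4.82, 3.48, 6.10 and 2.76 FPKM in workers of experiment 2, against 0.997, 0.995, 1.70 and 1.14 FPKM in gamergates. With Kr-h1 siRNA it had 3.78, 2.07, 2.26 and 2.33 FPKM in workers, against 2.60, 2.19, 2.11 and 1.28 FPKM in gamergates. The castes were apart with GFP siRNA, where it rose by 1.43 ± 0.22 (limma adjusted p = 5.29e-05), and overlapped with Kr-h1 siRNA, where the difference was 0.29 ± 0.23 (limma adjusted p = 0.413).

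The remaining 3 of the 8 genes follow. LOC112589505 (protein-coding) rose by 1.19 with GFP siRNA and 1.30 with Kr-h1 siRNA, with adjusted p in limma of 0.00362 and 0.00797, and both calls held in all 17 fits with 1 library left out. With the span trend removed its limma adjusted p with GFP siRNA was 0.0680. LOC105191250 (lncRNA) rose by 1.83 and 1.66, and its call with Kr-h1 siRNA (limma adjusted p = 0.0307) was lost in 4 of 17 fits with 1 library left out, with an adjusted p of 0.106 without worker Kr-h1 replicate 4. Its call with GFP siRNA was lost with the span trend removed (limma adjusted p = 0.0757). LOC112589101 (protein-coding, 12.5 reads in the median library) rose by 0.62 and 1.07, and its call with GFP siRNA (limma adjusted p = 0.0411) was lost in 6 of 17 fits, with an adjusted p of 0.121 without gamergate GFP replicate 1. With the span trend removed its difference with GFP siRNA was -0.019, and with quantile normalisation its limma adjusted p with Kr-h1 siRNA was 0.0524. In experiment 3 the castes overlapped in both treatments for LOC112589505, LOC105191250 and LOC112589101.

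Apart from LOC105182527 and LOC105183022, 8 genes without a symbol passed the test as higher in workers with 1 of the siRNAs, and for none of them did the difference between siRNAs pass. LOC112588071 (protein-coding) had 3.08, 1.58, 1.99, 11.3 and 2.15 FPKM in workers with GFP siRNA, against 0.316, 0.246, 0.695 and 0.701 FPKM in gamergates, with no overlap, and rose by 1.89 ± 0.42 (limma adjusted p = 0.00129). LOC105182368, LOC105183426, LOC105181155, LOC112588966, LOC112590625 and LOC105184102 rose with GFP siRNA by 0.59 to 2.34. Their castes overlapped with GFP siRNA in experiment 2, except for LOC105183426 and LOC105181155. The limma adjusted p was 0.0407 for LOC112590625 and 0.0411 for LOC105184102. LOC112590625 had 4.0 reads and LOC112588966 9.5 reads in the median library, and LOC105182368 rose by 2.34 ± 0.78. With Kr-h1 siRNA, LOC105191171 (protein-coding) had 3.35, 1.72, 1.80 and 2.47 FPKM in workers, against 0.354, 0.173, 0.674 and 0.121 FPKM in gamergates. Its workers were all above its gamergates and it rose by 1.78 ± 0.51 (limma adjusted p = 0.0173), with an adjusted p of 0.0569 without worker Kr-h1 replicate 1.

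**Figure D3:**
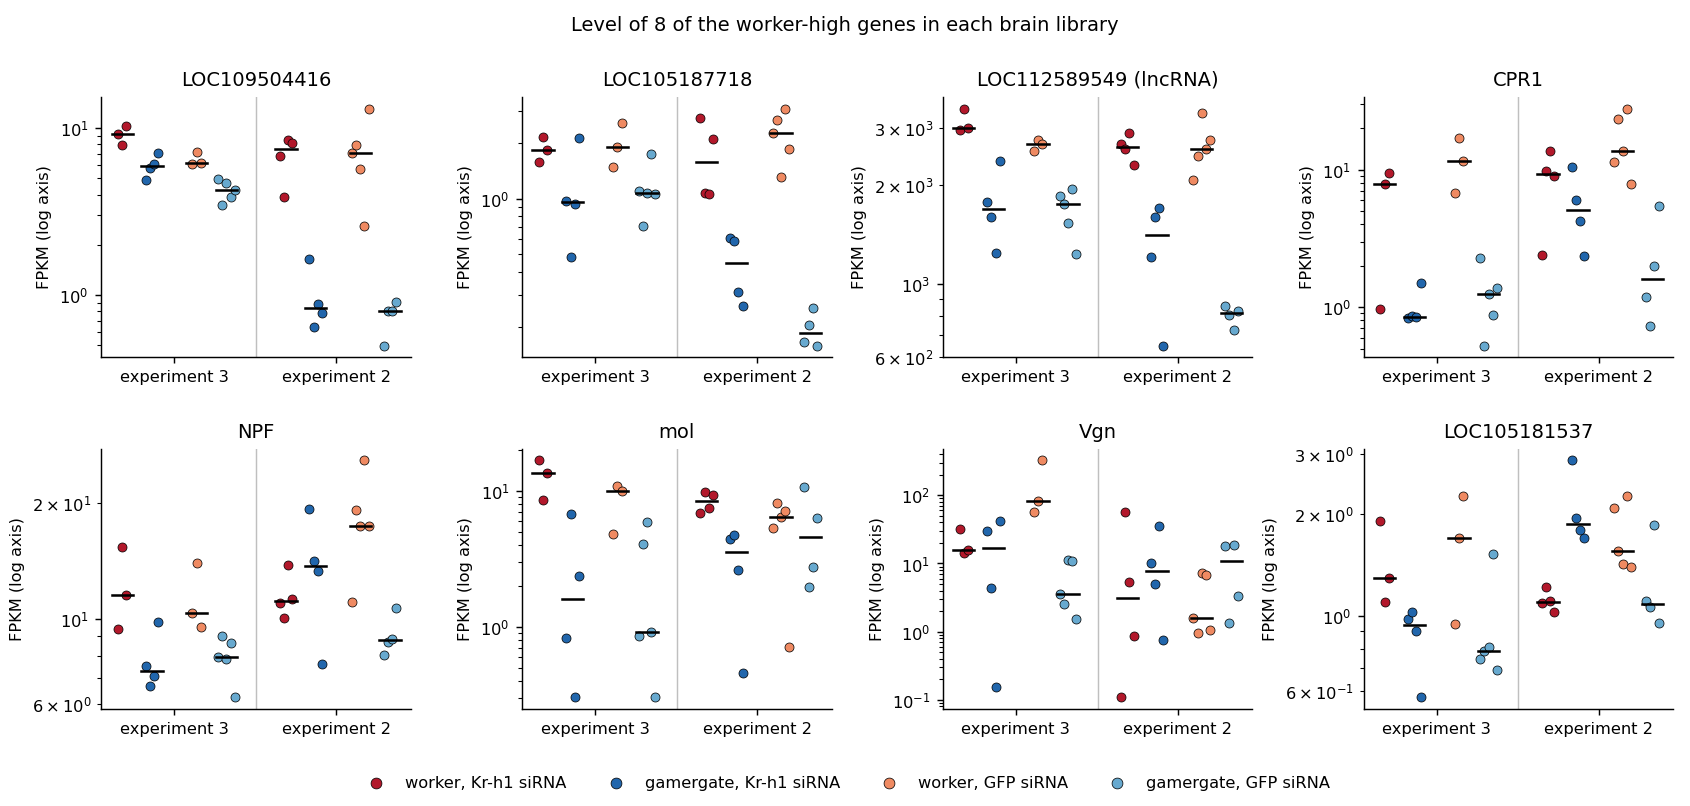
FPKM on log axes in each brain library for 8 of the 100 genes, with experiment 3 left and experiment 2 right in each panel, points coloured by caste and siRNA, and bars at group medians. LOC109504416, LOC105187718 and LOC112589549 keep workers above gamergates in both treatments of experiment 2, CPR1 and NPF do so with GFP siRNA alone, and Vgn spans 0.108 to 55.9 FPKM in workers with Kr-h1 siRNA of experiment 2.

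Among the genes with a symbol, 2 were called in experiment 2. CPR1, a cuticular protein gene of the kind that builds the chitin cuticle, had 11.3, 23.2, 13.7, 27.8 and 7.82 FPKM in workers with GFP siRNA, against 1.20, 0.727, 1.99 and 5.48 FPKM in gamergates. With Kr-h1 siRNA it had 2.41, 9.7, 13.6 and 8.99 FPKM in workers, against 10.5, 6.02, 4.23 and 2.37 FPKM in gamergates. The castes were apart with GFP siRNA and overlapped over most of their range with Kr-h1 siRNA. It rose by 2.73 ± 0.52 with GFP siRNA (limma adjusted p = 0.000342), called in all 17 fits with 1 library left out, while the difference with Kr-h1 siRNA was 0.51 ± 0.55 (limma adjusted p = 0.554).

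In experiment 3 CPR1 had 0.963, 7.88 and 9.43 FPKM in workers and 0.836, 0.857, 0.85 and 1.49 FPKM in gamergates with Kr-h1 siRNA. Workers with GFP siRNA had 6.72, 16.9 and 11.6 FPKM, and gamergates had 2.29, 0.526, 1.25, 0.878 and 1.37 FPKM. One worker with Kr-h1 siRNA was thus at the gamergate level. Cuticle and epidermis markers, a sign of tissue around the brain, were present in every library: the 20 matched, CPR1 among them, summed to between 206 and 3504 FPKM in workers and between 124 and 14400 FPKM in gamergates with GFP siRNA of experiment 2, and 1 of the 20 was at 0 in every library. With Kr-h1 siRNA they summed to between 439 and 7525 FPKM in workers and between 98.9 and 5439 FPKM in gamergates. In experiment 3 the sums with GFP siRNA were 295 to 5629 FPKM in workers and 1167 to 35240 FPKM in gamergates. With Kr-h1 siRNA in experiment 3 they were 118 to 30290 FPKM in workers and 929 to 29290 FPKM in gamergates. Of the 12 tested in experiment 2, 2 rose (CPR1 and CPR14) and 1 fell (kkv, a chitin synthase gene) with GFP siRNA, and 0 were called with Kr-h1 siRNA (limma). The part of cuticle tissue in the CPR1 difference was not tested.

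NPF encodes neuropeptide F, a brain peptide that regulates feeding and related behaviour in insects. With GFP siRNA it had 11.1, 19.2, 17.4, 25.8 and 17.4 FPKM in workers of experiment 2, against 8.04, 8.73, 8.87 and 10.7 FPKM in gamergates. With Kr-h1 siRNA it had 11, 10, 13.8 and 11.3 FPKM in workers, against 19.3, 14.1, 13.3 and 7.63 FPKM in gamergates. Every worker was above every gamergate with GFP siRNA, while with Kr-h1 siRNA the highest 2 values and the lowest were gamergates. It rose by 0.92 ± 0.23 with GFP siRNA (limma adjusted p = 0.00274, called in all 17 fits with 1 library left out), and the difference with Kr-h1 siRNA was -0.17 ± 0.24 (limma adjusted p = 0.667). Of the 12 neuropeptide genes tested, NPF included, 2 were higher and 2 lower in workers with GFP siRNA, and 2 were higher and 1 lower with Kr-h1 siRNA (limma). The NPF span overlaps 2 other annotated genes, which averaged 0.526 and 0.193 FPKM.

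The gene mol had the highest score under the rule and is, in the fly, a maturation factor of the hydrogen peroxide producing enzyme Dual oxidase. With Kr-h1 siRNA it had 6.87, 9.88, 7.49 and 9.31 FPKM in workers of experiment 2, against 4.46, 4.76, 2.61 and 0.460 FPKM in gamergates. With GFP siRNA it had 5.31, 8.13, 6.45, 7.08 and 0.707 FPKM in workers, against 10.7, 1.97, 2.77 and 6.31 FPKM in gamergates. Workers were above all gamergates with Kr-h1 siRNA, and the castes overlapped with GFP siRNA. Neither difference passed the test, at 1.57 ± 0.61 with Kr-h1 siRNA (limma adjusted p = 0.0753) and 0.01 ± 0.58 with GFP siRNA (limma adjusted p = 0.991). Without worker GFP replicate 5, which was at 0.707 FPKM, the adjusted p with Kr-h1 siRNA was 0.0281, while the difference with GFP siRNA was 0.52.

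Next to mol in the annotation lie the lncRNAs LOC105191213 and LOC105191214, also among the 100, and the 3 varied together across the 32 libraries. Their summed level in experiment 3 was 28.1, 14.8 and 22.7 FPKM in workers with Kr-h1 siRNA, against 1.04, 16.3, 0.349 and 6.71 FPKM in gamergates. With GFP siRNA the sums were 10.5, 19.7 and 22.1 FPKM in workers, against 4.4, 9.89, 16.7, 1.28 and 0.438 FPKM in gamergates. In each treatment 1 gamergate reached the range of the workers while another was below 1 FPKM. None of the 3 was called in experiment 2. In all, 11 of the 100 genes formed 6 neighbouring pairs in the annotation.

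Vgn, a vitellogenin gene, encodes a precursor of the egg yolk protein that insects make mainly in the fat body. Of the 100 it had the largest difference with GFP siRNA in experiment 3, where workers had 56.3, 81.8 and 324 FPKM and gamergates 3.54, 2.57, 11.2, 11 and 1.55 FPKM. With Kr-h1 siRNA in that experiment it had 31.9, 14.5 and 15.9 FPKM in workers and 29.8, 4.35, 0.154 and 41.7 FPKM in gamergates. In experiment 2 it had 1.59, 0.943, 7.13, 6.81 and 1.05 FPKM in workers with GFP siRNA, against 18.1, 1.36, 18.8 and 3.28 FPKM in gamergates with GFP siRNA. It had 0.108, 55.9, 5.30 and 0.874 FPKM in workers with Kr-h1 siRNA, against 10.3, 4.99, 35.4 and 0.746 FPKM in gamergates with Kr-h1 siRNA. The castes overlapped in 3 of the 4 settings, all but GFP siRNA in experiment 3, and the experiment 2 differences of -1.22 ± 1.17 and -0.82 ± 1.23 did not pass the test (adjusted p in limma of 0.393 with GFP siRNA and 0.682 with Kr-h1 siRNA). The 7 fat body markers matched, which do not include Vgn and of which 0 were at 0 in every library, summed with GFP siRNA in experiment 3 to between 2303 and 3008 FPKM in workers and between 1687 and 3005 FPKM in gamergates. With Kr-h1 siRNA in experiment 3 they summed to between 2216 and 2823 FPKM in workers and between 1604 and 2216 FPKM in gamergates. In experiment 2 the sums were 2235 to 2883 FPKM in workers and 1722 to 2971 FPKM in gamergates with GFP siRNA, and 2271 to 2498 FPKM in workers and 2268 to 2760 FPKM in gamergates with Kr-h1 siRNA. Of the 5 markers tested, 3 fell in workers with GFP siRNA of experiment 2 (Hex70a, Hex70c and apolpp) and 1 rose (Lsd-1), while 0 were called with Kr-h1 siRNA (limma). The part of fat body tissue in the Vgn values was not tested.

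The other 9 genes with a symbol were not called in experiment 2 with either siRNA. P5CS, an enzyme of proline synthesis, differed by -0.52 with GFP siRNA (limma adjusted p = 0.114) although its castes were apart in both treatments of experiment 3. With GFP siRNA in experiment 2 it had 4.16, 4.38, 2.64, 4.26 and 2.57 FPKM in workers, against 6.94, 3.77, 7.17 and 3.97 FPKM in gamergates. The gene black, which in the fly makes the beta-alanine used in cuticle tanning and in neurons, differed by -0.07 (limma adjusted p = 0.766) and had 2.16 to 3.89 FPKM in workers and 2.53 to 4.05 FPKM in gamergates with GFP siRNA. Each of these spans overlaps a more abundant gene. The P5CS span overlaps Oct-TyrR, which averaged 26.1 FPKM, and that of black overlaps LOC105184124, at 147.9 FPKM.

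Of these, 3 genes act in cell division or growth. For insc, which in the fly orients the dividing neural stem cell, the difference in experiment 2 was 0.28 with GFP siRNA and -0.79 with Kr-h1 siRNA, where its workers had 4.19, 2.51, 4.81 and 2.11 FPKM and its gamergates 4.87, 5.74, 7.04 and 6.5 FPKM. All workers were below all gamergates in that treatment, with an adjusted p in limma of 0.228. For Orc3, a subunit of the origin recognition complex of DNA replication, the difference with GFP siRNA was 0.37 (adjusted p = 0.143 in limma). For mav, a ligand of the TGF-beta family in the fly, it was 1.77 (adjusted p = 0.0604 in limma).

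The immune genes PPO, a prophenoloxidase of melanisation, and Def2, a defensin, differed by -0.41 and -0.17 with GFP siRNA, with adjusted p in limma of 0.226 and 0.770. The Def2 span overlaps another gene that averaged 12.55 FPKM, against 1.66 FPKM for Def2. PPO is 1 of 4 haemocyte markers, which summed to between 2.75 and 6.91 FPKM in workers and between 9.38 and 14.9 FPKM in gamergates with GFP siRNA of experiment 2. In the other settings the castes overlapped. With Kr-h1 siRNA of experiment 2 the sums were 5.33 to 10.34 FPKM in workers and 6.09 to 10.11 FPKM in gamergates. In experiment 3 they were 6.71 to 10.71 and 8.02 to 10.25 FPKM with GFP siRNA, and 8.59 to 10.39 and 6.57 to 8.91 FPKM with Kr-h1 siRNA, workers first. None of the 4 was at 0 in every library, and their part in the PPO values was not tested. Gmppa, which belongs to the enzyme that makes GDP-mannose for glycosylation, differed by 0.13 (adjusted p = 0.716 in limma), and stum, a mechanosensory gene in the fly, by 0.62 with GFP siRNA and 0.68 with Kr-h1 siRNA (adjusted p in limma 0.0955 and 0.15).

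Some of the 100 genes went the other way in experiment 2. Values of all workers in at least 1 treatment of experiment 3 exceeded those of all gamergates, and values of all workers in at least 1 treatment of experiment 2 were below those of all gamergates, for 7 genes, against 2.55% of all genes. The rule favours the experiment 3 side of that count, so its share cannot be set against that of all genes. On the experiment 2 side alone, all workers were below all gamergates for 1 of the 100 with GFP siRNA (19.0% of all genes). With Kr-h1 siRNA that held for 8 of the 100 (11.7% of all genes). The 7 genes of the joint count were LOC112589201, LOC112590267, LOC112588763, LOC112590259, insc, LOC112590284 and LOC105181537. Of these, LOC112589201, LOC112590267, LOC112588763 and LOC112590259 belong to a block of 10 genes described below, as does LOC112588273 among the 8. The genes of that block may not be separate measurements. LOC112589920 had 2.68, 2.05, 2.26, 3.27 and 3.76 FPKM in workers with GFP siRNA of experiment 2, against 6.52, 5.06, 6.07 and 5.81 FPKM in gamergates. It fell by 0.97 ± 0.22 on the log2 scale (limma adjusted p = 0.00134), with every worker below every gamergate, and the call held in all 17 fits with 1 library left out. In experiment 3 with GFP siRNA the same gene had 6.13, 4.47 and 2.92 FPKM in workers and 2.98, 1.43, 2.95, 3.18 and 2.99 FPKM in gamergates.

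LOC105181537 had 1.09, 1.22, 1.11 and 1.03 FPKM in workers with Kr-h1 siRNA of experiment 2, against 2.87, 1.95, 1.79 and 1.69 FPKM in gamergates. It fell by 0.66 ± 0.19 on the log2 scale (limma adjusted p = 0.0183), with all workers below all gamergates, and the adjusted p was 0.0658 without gamergate Kr-h1 replicate 1. With GFP siRNA its difference was 0.37 (limma adjusted p = 0.0866). LOC105185940 had 16.6, 4.39, 7.48 and 10.8 FPKM in workers with Kr-h1 siRNA, against 36.1, 27.1, 8.84 and 33.8 FPKM in gamergates. Its call, -1.35 ± 0.47 (limma adjusted p = 0.0461), was lost in 11 of 17 fits with 1 library left out, with an adjusted p of 0.127 without worker Kr-h1 replicate 2. Also lower in workers were LOC105184332 with GFP siRNA (-0.62, limma adjusted p = 0.00516, called in all 17 such fits), LOC105192418 with GFP siRNA (-0.65, limma adjusted p = 0.0445, called in 7) and LOC105191150 with Kr-h1 siRNA (-0.69, limma adjusted p = 0.0305, called in 13). The adjusted p was 0.167 for LOC105192418 without gamergate GFP replicate 1 and 0.112 for LOC105191150 without worker Kr-h1 replicate 1.

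The lowest difference with either siRNA belonged to the protein-coding gene LOC112588367, at -1.75 ± 0.79 with GFP siRNA (limma adjusted p = 0.0708) and -1.67 ± 0.83 with Kr-h1 siRNA (limma adjusted p = 0.167). Over 29 alternatives it ran from -2.75 to -0.25 with GFP siRNA, called in 2 of them, and from -2.21 to -1.11 with Kr-h1 siRNA, called in 0. LOC105189116, also protein-coding, differed by -1.35 with GFP siRNA and was called with neither siRNA. Of the 15 genes with the highest score, LOC112588800 and LOC109504023 (lncRNAs) and LOC105184971 and LOC112588844 (protein-coding) were called in no test of experiment 2, with differences of 0.18 to 1.46 with GFP siRNA and -0.41 to 1.21 with Kr-h1 siRNA.

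A block of 10 protein-coding genes without symbols was higher in workers of experiment 3, as chosen, and had differences below 0 in experiment 2. They were LOC112589201, LOC112590267, LOC112588763, LOC112590050, LOC112590259, LOC112588273, LOC112589308, LOC112589389, LOC112589388 and LOC112590258, grouped after their values were seen because their log2 levels were correlated at 0.85 or more across the 32 libraries. Their median worker minus gamergate difference was 1.06 with GFP siRNA and 0.79 with Kr-h1 siRNA in experiment 3, and -0.75 and -1.19 with the same siRNAs in experiment 2. In experiment 2 their differences ran from -1.02 to -0.30 with GFP siRNA and from -1.34 to -0.95 with Kr-h1 siRNA, below 0 in all 10 genes in both treatments.

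Their summed level in experiment 2 was 7.27, 6.86, 17.4 and 16.1 FPKM in workers with Kr-h1 siRNA, against 33.2, 41.3, 18.1 and 42.8 FPKM in gamergates. With GFP siRNA it was 19.3, 2.68, 12.1, 16.0 and 31.9 FPKM in workers, against 8.77, 52.7, 23.0 and 36.6 FPKM in gamergates. In experiment 3 the sums with Kr-h1 siRNA were 9.52, 13.2 and 15.6 FPKM in workers and 0.22, 14.1, 3.8 and 6.2 FPKM in gamergates, and with GFP siRNA 19.3, 14.9 and 8.28 FPKM in workers and 0.480, 4.18, 8.57, 3.24 and 6.45 FPKM in gamergates. The castes overlapped in 3 of these 4 settings and were apart with Kr-h1 siRNA in experiment 2, where workers were the lower.

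The 10 genes may not be separate measurements. The ratio of LOC112590267 to LOC112589201 stayed between 0.715 and 1.10 over the 31 libraries where both had reads, and that of LOC112589388 to LOC112589389 between 0.481 and 0.963 with a median of 0.963. Whether these genes share reads was not tested, how the counting treated reads that match more than 1 gene is not given in the sources used here, and their values are reported as uncertain. Only LOC112589389 and LOC112589388 were called lower, at -1.28 (adjusted p = 0.0367 in limma) and -1.27 (adjusted p = 0.0479 in limma) with Kr-h1 siRNA, and LOC112589389 also with GFP siRNA at -1.02 (adjusted p = 0.0403 in limma). These calls held in 12, 6 and 12 of 17 fits with 1 library left out. Without worker Kr-h1 replicate 1 the adjusted p with Kr-h1 siRNA was 0.110 and 0.133, and without gamergate GFP replicate 2 the adjusted p of LOC112589389 with GFP siRNA was 0.154.

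**Figure D4:**
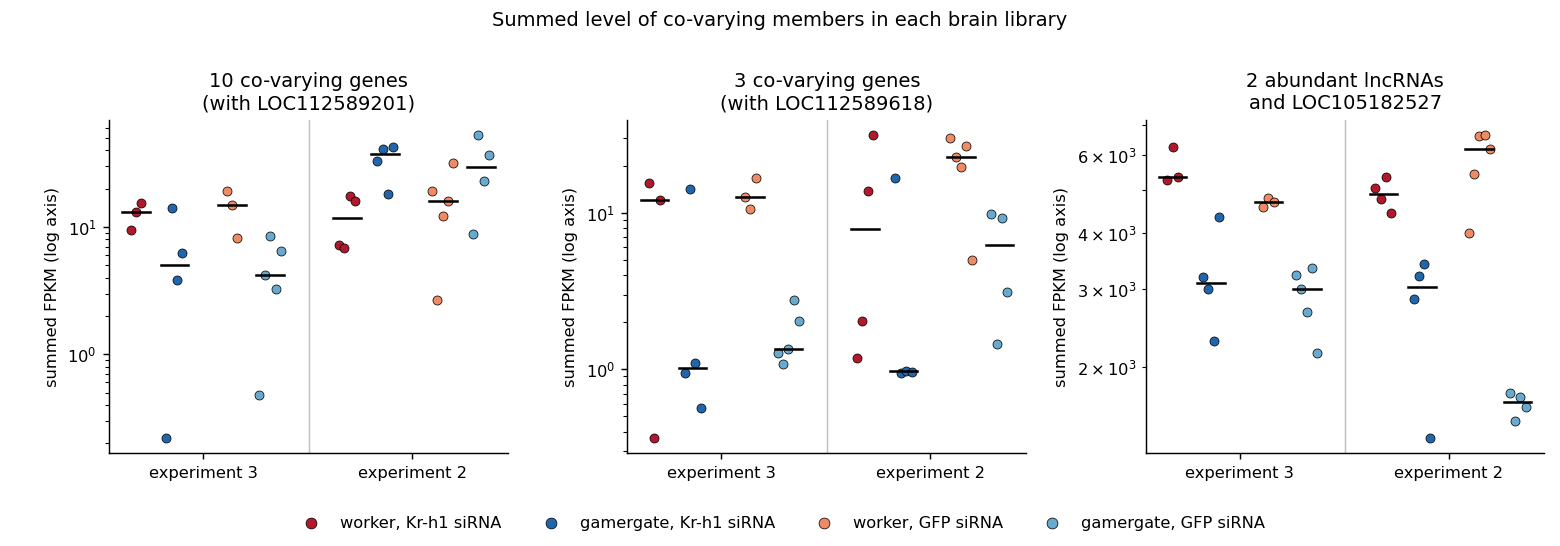
Summed FPKM on log axes in each brain library for 3 sets of genes of the 100 that varied together, with experiment 3 left and experiment 2 right, points coloured by caste and siRNA, and bars at group medians. The set of 10 genes has 0.22 to 14.1 FPKM in gamergates with Kr-h1 siRNA of experiment 3 and 18.1 to 42.8 FPKM in those of experiment 2.

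Another set, LOC112589618 (lncRNA), LOC112590325 and LOC105183022, was high in some brains and low in others of the same group. With Kr-h1 siRNA in experiment 3 its summed level was 15.6, 0.364 and 12.0 FPKM in workers and 0.942, 14.1, 1.10 and 0.563 FPKM in gamergates, so that replicate 6 of each caste was at the level of the other caste's other brains. Gamergate Kr-h1 replicate 6 also had the highest sum of its group for mol and its neighbours, at 16.3 FPKM, and for the 10 genes, at 14.1 FPKM, and lay within the range of the workers in both. With GFP siRNA in experiment 3 the sums were 12.7, 10.6 and 16.7 FPKM in workers and 1.27, 1.09, 1.35, 2.78 and 2.03 FPKM in gamergates, with no overlap. In experiment 2 they were 1.18, 2.02, 13.7 and 31.2 FPKM in workers with Kr-h1 siRNA, against 16.7, 0.942, 0.975 and 0.965 FPKM in gamergates with Kr-h1 siRNA. They were 29.9, 22.5, 19.4, 26.7 and 4.99 FPKM in workers with GFP siRNA, against 9.83, 1.45, 9.24 and 3.12 FPKM in gamergates with GFP siRNA. Only LOC105183022 was called, at 1.69 with GFP siRNA (limma adjusted p = 0.0452), and that call was lost in 8 of 17 fits with 1 library left out, with an adjusted p of 0.137 without gamergate GFP replicate 2.

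The knockdown itself changed none of the 100 genes past the test in experiment 2, in workers or in gamergates (limma, adjusted p under 0.05). Over all genes 0.0% were called in workers and 0.117% in gamergates, so the background was at or near 0 as well. At an unadjusted p under 0.05, 1 of the 100 was higher and 6 were lower with Kr-h1 siRNA in workers, 7 in all where 17.1% of all genes passed (9.13% higher and 7.93% lower). Of the 100 genes in gamergates, 8 were higher and 1 was lower, 9 in all where 15.1% of all genes passed (9.68% higher and 5.45% lower). On recovered reads, limma's voom called 0 in either caste of the 97 genes that have them. Down-weighting variable libraries called 9 of the 100 in gamergates, where 17.3% of all genes were called. Values with Kr-h1 siRNA were all below those with GFP siRNA for 2 of the 100 in workers (4.11% of all genes), and all above them for 0 (3.6%). In gamergates they were all below for 1 (1.96%) and all above for 1 (3.64%).

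The test of whether the knockdown difference itself differed between castes called 0 of the 100 and 0 of all genes (0.0%) in limma. In simulated data it found 2% of 1.5-fold and 34% of 2-fold changes, so 0 calls do not show equal knockdown differences. At an unadjusted p under 0.05, 8 of the 100 passed, 1 higher and 7 lower in workers than in gamergates, where 30.9% of all genes passed (14.8% higher and 16.1% lower). On recovered reads, voom called 2 of 97 (3.48% of all genes). Leaving out gamergate GFP replicate 3 gave 8 of the 100 (21.4% of all genes), and leaving out gamergate Kr-h1 replicate 4 gave 5 (5.13%). Down-weighting variable libraries gave 11 of the 100, where 24% of all genes were called.

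The genes of smallest p in these tests were LOC105181537, LOC105182527 and NPF. For NPF the difference between Kr-h1 and GFP siRNA was -0.60 ± 0.23 in workers (adjusted p = 0.256 in limma) and 0.49 ± 0.24 in gamergates (adjusted p = 0.331 in limma). The difference between these was -1.09 ± 0.33 (adjusted p = 0.0670 in limma), with 0.0415 without gamergate GFP replicate 3 as the lowest of the 17 fits with 1 library left out and 0.162 as the highest. For LOC105181537 it was -1.03 ± 0.26, and for LOC105182527 -1.14 ± 0.32, both with an adjusted p of 0.0630 in limma. CPR1 differed by -0.98 in workers and 1.24 in gamergates, with an adjusted p in limma of 0.0784 for the difference between them. These genes had lower means with Kr-h1 siRNA in workers and higher means with Kr-h1 siRNA in gamergates, and none passed the test.

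In gamergates the smallest p belonged to LOC112589920, LOC105181537 and LOC105185940. LOC112589920 had 1.83, 3.80, 4.19 and 3.66 FPKM with Kr-h1 siRNA and 6.52, 5.06, 6.07 and 5.81 FPKM with GFP siRNA. All values with Kr-h1 siRNA were below those with GFP siRNA, and the difference was -0.76 ± 0.23 (adjusted p = 0.299 in limma). LOC105185940 had 36.1, 27.1, 8.84 and 33.8 FPKM with Kr-h1 siRNA and 7.03, 7.25, 20.7 and 4.99 FPKM with GFP siRNA. Its groups overlapped through gamergate Kr-h1 replicate 3 and gamergate GFP replicate 3, and the difference was 1.39 ± 0.47 (adjusted p = 0.299 in limma).

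**Figure D5:**
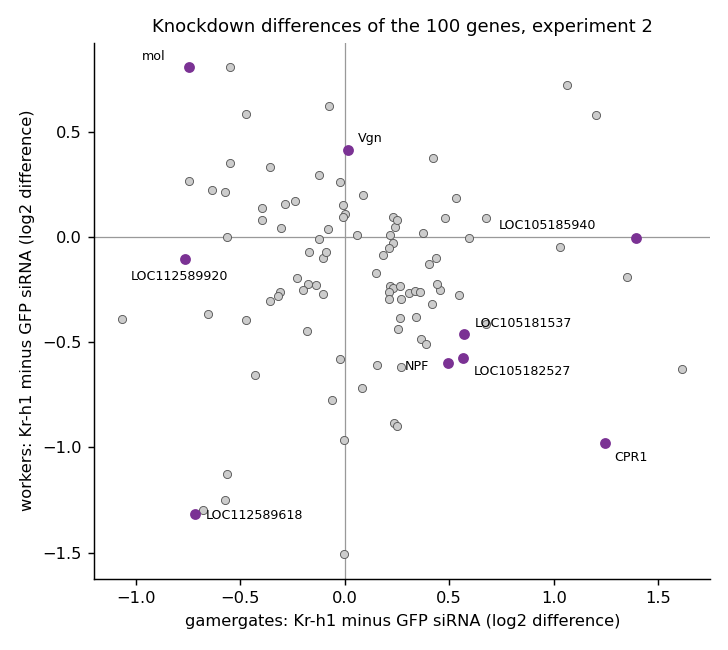
Each point is 1 of the 100 genes in experiment 2, placed by its Kr-h1 minus GFP siRNA log2 difference in gamergates (x axis) and in workers (y axis). The median is -0.19 in workers and 0.09 in gamergates, against 0.005 and -0.002 over all genes. With the span trend removed the median of the 100 is -0.035 in workers and -0.099 in gamergates. None of the genes passed the test in either caste.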

How the data were processed

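RNA was measured by strand-specific sequencing of polyadenylated RNA from single central brains, per the labels' protocols. The authors deposited FPKM values for 14001 genes in 32 libraries. The submitters' processing notes give the tools DESeq2, STAR, featureCounts and bcl2fastq without versions or roles, and neither the genome build nor the annotation is given in the sources used here. Gene names and spans came from the RefSeq assembly Hsal_v8.6, in which 13989 identifiers matched and 12 did not, and 4116 genes had a symbol. Overlaps and neighbours were read from the order and positions in that table.

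Whole reads were recovered from the steps of low FPKM values for 98.5% of 12692 genes searched (tolerance 0.02 reads), which gave the depth of each library.

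Genes at 1 FPKM or more in 7 or more of the 32 libraries were tested (9433 genes). Log2(FPKM + 0.5), with 0.5 as the pseudocount, was fitted with limma 3.58.1 in R 4.3.3 over the 17 libraries of experiment 2, with 4 group terms and a mean-variance trend. P-values were adjusted over all 9433 genes by the Benjamini-Hochberg method and called under 0.05, and they measure the spread between individual brains. The fit was tested on simulated data with changes put into random genes. It found 28% of 1.5-fold and 77% of 2-fold changes for the knockdown in workers, and 23% and 69% in gamergates. For the caste difference it found 26% and 70% with GFP siRNA, and 23% and 70% with Kr-h1 siRNA. The 100 genes had a median SD within groups of experiment 2 of 0.66, against 0.28 over all genes. A gene that was not called is therefore not shown to be unchanged. Tables were made with Python 3.11.15.

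The 100 genes, the gene lists and the tests were chosen with earlier results of these data known. Of the lists of neuron, glia, fat body, haemocyte, cuticle and neuropeptide genes, only the last 3 held any of the 100. Genes named are those with a symbol, the 15 of highest score, those of smallest p in each test, the 5 of lowest experiment 2 difference, and those around the threshold. Of the resulting 45, full values are given mainly for the 11 that qualified in more than 1 way. Genes named outside the rule, such as those of the sets that vary together, were chosen after their values were seen.

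Alternatives were pseudocounts of 0.1 and 1, no filter, a filter on 4 of the 17 libraries, size factors, quantile normalisation, a span trend, the replicate number as a block, array weights, robust eBayes, leaving out libraries, and all 32 libraries with a batch term. The voom fit on recovered reads was added after the data had been seen.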

Additional observations from a re-analysis of the deposited data

Results flagged for a closer look

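For 35 of the genes, each group of 4 or 5 libraries was checked for a library set apart from the rest of its group by Dixon's test, and 15 of 210 groups were marked. Chance alone marks about 1 in 20 groups. The values below are given as FPKM, not on the scale of the test.

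In experiment 2, worker GFP replicate 5 was low for 3 genes: mol at 0.707 against 5.31 to 8.13 in the other workers with GFP siRNA, insc at 0.666 against 3.46 to 5.74, and LOC105183022 at 4.35 against 10.7 to 14.1. Worker GFP replicate 5 was also 1 of the pair of libraries with many weakly expressed genes listed at 0. The part of that library's quality in these values was not tested.

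Among gamergates with Kr-h1 siRNA of experiment 2, replicate 1 was high for LOC105183022 at 9.45 (others 0.559 to 0.884) and low for LOC112589920 at 1.83 (others 3.66 to 4.19). Replicate 4 was low for the lncRNA LOC105188517 at 732 (others 1589 to 1703). Among gamergates with GFP siRNA of experiment 2, replicate 1 was high for mav at 2.32 (others 0.518 to 0.672), replicate 2 was low for LOC105191250 at 0.589 (others 2.02 to 2.23) and replicate 4 was high for PPO at 3.68 (others 1.91 to 2.13).

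In experiment 3, gamergate Kr-h1 replicate 8 was high for CPR1 at 1.49 (others 0.836 to 0.857) and had LOC112588071 listed at 0 (others 1.98 to 2.49), and gamergate Kr-h1 replicate 6 was low for mav at 1.03 (others 4.89 to 5.58). Among gamergates with GFP siRNA of experiment 3, replicate 8 was high for LOC105181537 at 1.52 (others 0.694 to 0.809), replicate 9 was low for LOC105191250 at 1.53 (others 5.42 to 8.43) and replicate 6 was low for LOC112589920 at 1.43 (others 2.95 to 3.18).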

How the results depend on the processing

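Counts are of the 100 genes (97 with voom) unless all genes are named. With GFP siRNA the caste count of 23 was 37 with the span trend removed and 52 with array weights, and 18 to 33 with 1 library left out. With Kr-h1 siRNA the count of 14 was 9 with no filter, 24 with array weights and 6 with voom, and 8 to 18 with 1 library left out, and array weights called 4288 of all genes. For the knockdown in workers, leaving out 1 library called 0 to 1 of all genes. For the knockdown in gamergates, array weights called 9, and the 11 called of all genes were 2 with no filter, 5 with the span trend removed, 4 with the replicate block, 1636 with array weights, 1 with robust eBayes, 3 without worker GFP replicates 4 and 5, 68 with all 32 libraries, and 1 to 72 with 1 library left out. For the difference between the knockdowns, array weights called 11, all 32 libraries 1 and voom 2, and leaving out 1 library 0 to 8. Of all genes, no filter called 1, array weights 2266, all 32 libraries 1554, voom 322, and leaving out 1 library 0 to 2014. The 32 libraries include those that chose the genes. The cause of these shifts was not tested.

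Signs turned for 7 differences of single genes. With Kr-h1 siRNA, NPF ran from -0.41 to 0.019 and Vgn from -2.08 to 0.095 with 1 library left out. With GFP siRNA, mol was -0.027 with a pseudocount of 0.1 and -0.027 with quantile normalisation (-0.33 to 0.52 with 1 library left out), and LOC112589101, called at 0.62, was -0.019 with the span trend removed. With GFP siRNA, black was 0.032 with the replicate block, 0.077 without worker GFP replicates 4 and 5 and 0.058 with voom (-0.18 to 0.032 with 1 library left out). Gmppa was -0.15 without worker GFP replicates 4 and 5 (-0.095 to 0.31 with 1 library left out). Def2 was 0.033 with the span trend removed, 0.063 with the replicate block, 0.13 with array weights and 0.18 with voom (-0.64 to 0.22 with 1 library left out).

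Between same-numbered libraries of different groups, 24 correlations of the deviations from group means ran from -0.43 to 0.44, with 10 over 0.1. Their mean was 0.009, against -0.002 for the 84 other pairs. Such correlations cannot show whether the numbers pair the ants. With the replicate number as a block, 31 genes were called with GFP siRNA and 14 with Kr-h1 siRNA, and 0 for the knockdown in either caste. The main limits are the low level of most of the 100 genes, their spread between brains, and the run label that goes with caste in experiment 2.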
